A study of Mus musculus with 9 samples.

Results

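The Fc receptors and Fc receptor-like genes of splenic B cells were followed over 3 subsets of mouse B cells by RNA-seq. The genes were chosen by symbol: the CD23 gene Fcer2a, the inhibitory IgG receptor gene Fcgr2b, the Fc receptor-like genes Fcrl1, Fcrl5, Fcrla and Fcrlb, the receptor genes for IgM and for IgA and IgM, Faim3 and Fcamr, and the neonatal Fc receptor gene Fcgrt. Of the 10 symbols looked for, 9 had a row among the 24459 rows of the expression table. The other symbol, Fcmr, is the present name of the gene listed there as Faim3. Of the 9 genes, 8 had a mean of at least 0.5 FPKM (fragments mapped per kilobase of transcript, relative to all mapped fragments of the library) over the 9 libraries and were tested among 11597 rows. Fcrlb lay under that minimum and is given from the same model fitted with no minimum.

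The study asked how follicular B cells with low IgD (BDL), the subset in which it had found regulatory activity, differ from the other mature B cells of the spleen. The 3 populations were sorted from untreated mice 8 to 10 weeks old: follicular (FO) B cells with high IgD, BDL with low IgD, and marginal zone (MZ) B cells, 3 libraries of each. FO and BDL were both gated as B220+ IgM int CD21 int CD23+ CD93- and were split on IgD, and MZ was gated as B220+ IgM hi CD21 hi CD23- CD93-. Splenocytes of 5 mice were pooled for each sort. The sample titles end in 3 different strings of digits, read here as the dates of the sorts. Each date gave 1 library of every subset, which carry the same replicate number. The labels name the strain C57/BL6 and the paper B10.PL, with no genetic change or treatment in any group, and sorted cells were about 99% pure by the submitters' flow cytometry. Since cells were pooled, the spread between libraries is that between pools of mice sorted on different dates. Fewer cells with a transcript and less transcript per cell cannot be told apart in such bulk libraries.

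Fc receptors bind the constant region of antibodies and let a cell respond to antibody or to antigen coated with it. On B cells, signals from these receptors are read through tyrosine motifs in their tails: inhibitory motifs recruit phosphatases such as SHIP and SHP-1, which dampen the B cell receptor, and activating motifs recruit the kinase Syk. The Fc receptor-like proteins are relatives found mainly in B cells, some of which sit in the membrane and some inside the cell. Marginal zone B cells line the marginal sinus, respond quickly to blood-borne antigen and lack surface CD23, whereas follicular B cells circulate through the follicles and display CD23.

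The labels were first set beside markers. The B cell identity genes Ms4a1, Cd79a, Cd79b, Pax5, Cd22 and Ebf1 were tested, and none of them was called in any of the 3 comparisons. All 7 MZ markers were called higher in MZ than in FO and than in BDL, and 5 of 6 follicular markers were called lower in MZ in both comparisons. The MZ list holds Cr2 (CD21) and the follicular list Fcer2a (CD23), whose products were gates of the sort. Their calls against MZ check the gates only. The lists were also chosen with earlier results of these data known, so these counts are no independent test of the labels. Summed T cell markers stayed at or under 2.5 FPKM, and mast cell and basophil markers at or under 0.246, in every library. Follicular dendritic cell markers summed to 2.61 to 3.31 FPKM in FO, 3.71 to 5.24 in BDL and 1.37 to 1.56 in MZ. Mfge8, the 1 of them tested, was called higher in FO and in BDL than in MZ. Other marker lists also moved with the subsets. NK cell markers summed to 2.44 to 7.04 FPKM in FO, 3.34 to 6.05 in BDL and 7.08 to 11.7 in MZ. Only Prf1 of them was called (means 1.44, 0.852 and 7.17). Erythroid markers summed to 2.38 to 6.01, 8.45 to 9.62 and 4.6 to 7.96, and Hbb-b1 was called higher in BDL than in both others. Plasma cell markers summed to 186 to 223, 128 to 207 and 224 to 296, most of it Irf4 (means 179, 137 and 230). Of these markers, Sdc1 was called higher in BDL than in both others, and Prdm1 higher in MZ. Germinal centre markers summed to 29.7 to 35.3, 30.9 to 32.8 and 7.41 to 9.73, most of it Bcl6 (means 32.5, 26.4 and 7.61). Rgs13 of this list was called higher in BDL than in both others. Myeloid markers summed to 61.6 to 73.5 FPKM in FO, 75.8 to 101 in BDL and 130 to 160 in MZ, most of it Cybb (53.1 to 62.0, 63.9 to 91.0 and 113 to 147 FPKM), while Emr1 was called higher in BDL than in both others. BDL replicate 3 and MZ replicate 3 stood apart from the other libraries on the second principal component of all tested rows (-79.8 and -28.1, against -5.73 to 38.8 for the rest). Results are therefore also given without these libraries where that changes them.

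A gene was called where it passed an adjusted p of 0.05 in limma, on log2(FPKM + 0.1), and differed by 2-fold or more. Of the 8 genes tested, 3 were called higher (Fcer2a, Fcgrt and Faim3) and 1 lower (Fcrl5) in FO than in MZ, against 3.39% and 5.54% of all rows tested. The same 3 genes were called higher and the same 1 lower in BDL than in MZ, against 3.47% and 4.34% of rows. All counts against MZ include Fcer2a, whose product CD23 was a gate of the sort. Its call checks the gate and is not a finding. Between BDL and FO, 1 gene was called higher in BDL (Fcrl5), against 1.64% of rows, and 0 were called lower, against 0.267%. At an unadjusted p under 0.05, 2 of the 8 were higher and 2 lower in BDL than in FO, against 17.5% and 6.87% of rows. By adjusted p alone, with no minimum fold, the counts were 3 higher and 1 lower for FO over MZ (12.8% and 14.3% of rows), 4 higher and 2 lower for BDL over MZ (16.5% and 11.6%) and 1 higher and 0 lower for BDL over FO (6.04% and 1.68%). With the sort date as a block the counts of these genes called were as before, and the number of all rows called lower in BDL than in FO was 49 in place of 31. The comparisons share libraries (MZ stands in 2 of them, as do FO and BDL), so that their results are not independent. The median log2 fold change of the 8 genes was 0.17 for FO over MZ, 0.26 for BDL over MZ and -0.05 for BDL over FO, beside 0.01, 0.06 and 0.05 over all rows tested.

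**Figure D1:**
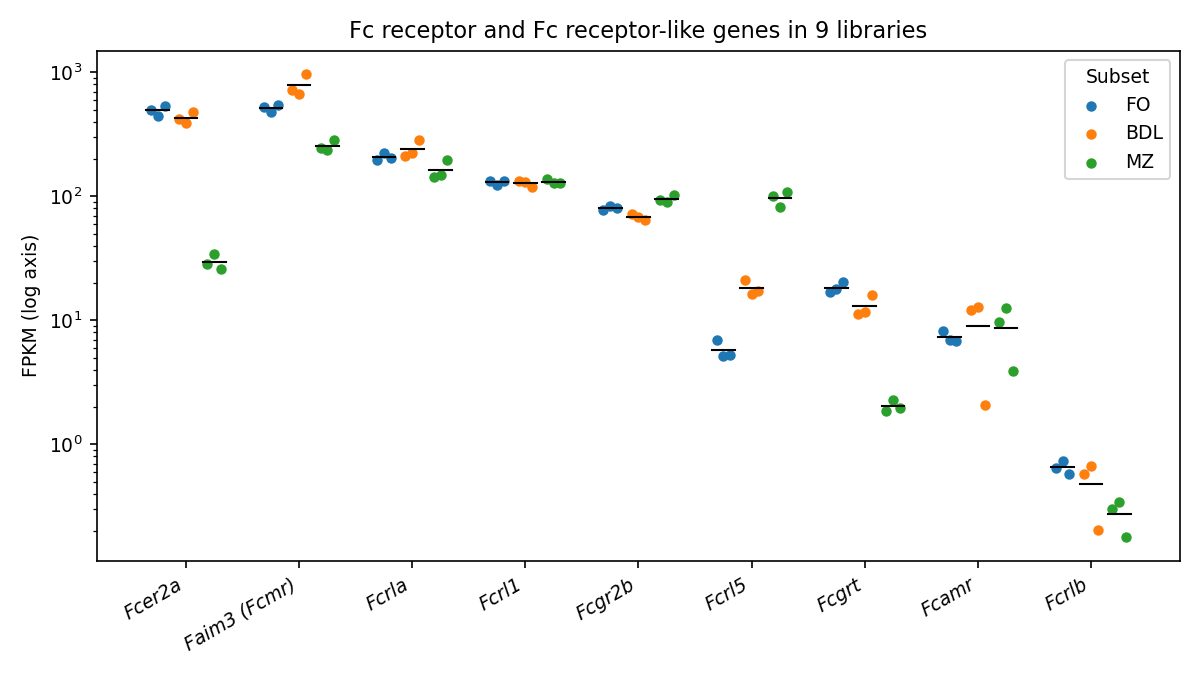
FPKM of the 9 genes (x axis) in each library on a log axis, with 3 points per subset (FO, BDL and MZ) and a line at each mean. Fcer2a, Faim3 and Fcgrt lie lowest in MZ, Fcrl5 lies highest in MZ with BDL between, Fcrl1 is level, and Fcamr and Fcrlb have low points in BDL replicate 3 and MZ replicate 3.

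Fcer2a encodes CD23, the low-affinity receptor for IgE, a C-type lectin unrelated in sequence to the other Fc receptors. It lies on chromosome 8 from 3681737 to 3694174 on the minus strand (NCBIM37, the build named mm9 in the labels; GENCODE M1 annotation). Its FPKM was 501, 448 and 538 in the FO libraries, 417, 389 and 476 in BDL, and 28.4, 34.5 and 26.0 in MZ. The FO and BDL values overlapped, and every MZ value lay far under both. Mean levels were 496 ± 45.1 (SD, n = 3) in FO, 427 ± 44.1 (SD, n = 3) in BDL and 29.6 ± 4.34 (SD, n = 3) in MZ. The log2 fold change was 4.06 for FO over MZ (standard error 0.135, limma adjusted p = 7.9e-07) and 3.85 for BDL over MZ (standard error 0.135, limma adjusted p = 1.8e-06). CD23 was itself a gate of the sort, so these values check that the sort separated the subsets and are not a finding. Between BDL and FO, both gated as CD23+, the log2 difference was -0.22 (95% interval -0.53 to 0.10, limma adjusted p = 0.368), and it was below 0 on each of the 3 dates (-0.26, -0.20 and -0.18). The transcript was not lacking in the CD23- gate: in MZ, Fcer2a ranked between 1691 and 2531 among the rows of each library.

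In the RefSeq promoter table (GRCm38.p6), all 9 genes were found, with 11 entries in all, since Fcer2a has 3 start sites. The 250 bases before each start were searched on both strands for the core of the RBPJ site, TGGGAA, the factor through which Notch acts, for the palindrome TTCNNNNGAA that STAT6 binds after interleukin-4, and for the octamer ATGCAAAT bound by Oct factors. Interleukin-4 is known to raise CD23 on B cells, and Notch2 signaling is needed to make MZ B cells. The stretch before the second Fcer2a start (chr8:3690862-3691111, minus strand) is shown because it held both kinds of match, and that before the Fcrl5 start (chr3:87435532-87435781, plus strand) because Fcrl5 had the opposite pattern of expression. Matches are in capitals, each is printed 5′ to 3′, and the gene follows the last base.
Fcer2a, second start: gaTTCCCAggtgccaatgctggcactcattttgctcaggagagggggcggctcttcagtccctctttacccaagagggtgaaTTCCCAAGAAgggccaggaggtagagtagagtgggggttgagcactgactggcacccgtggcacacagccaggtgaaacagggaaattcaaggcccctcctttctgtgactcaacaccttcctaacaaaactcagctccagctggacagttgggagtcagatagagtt
Fcrl5: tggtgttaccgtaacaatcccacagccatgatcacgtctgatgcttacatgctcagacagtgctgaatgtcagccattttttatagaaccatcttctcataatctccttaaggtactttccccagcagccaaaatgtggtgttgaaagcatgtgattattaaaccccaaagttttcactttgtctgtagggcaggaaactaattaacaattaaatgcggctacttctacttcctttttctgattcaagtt
In the Fcer2a stretch, 2 RBPJ cores, both read on the opposite strand as TTCCCA, began 248 and 168 bases before the start, and the second of them overlapped the STAT6 palindrome TTCCCAAGAA. The third Fcer2a start had 1 RBPJ core, 205 bases before it, and the first start had none of the 3 motifs. Among the other genes, Fcrlb had 2 RBPJ cores and Fcamr 1, with a STAT6 palindrome 228 bases before the Fcamr start. Fcrl5, Faim3, Fcgrt, Fcgr2b, Fcrl1 and Fcrla held no match of these letters. Over all 32851 promoters of the table, 21.6% held an RBPJ core, 5.85% the STAT6 palindrome and 1.6% the octamer. A match is a description of the sequence and shows no binding.

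Fcrl5 encodes a membrane Fc receptor-like protein of mouse MZ and B-1 B cells, with inhibitory and activating motifs in its tail. It lies on chromosome 3 from 87239807 to 87261758, plus strand. Its FPKM was 6.90, 5.16 and 5.29 in FO, 21.2, 16.3 and 17.4 in BDL, and 101, 81.4 and 108 in MZ. The subsets were ordered FO, BDL and MZ with no overlap between any of them. Means were 5.79 ± 0.968 (SD, n = 3) in FO, 18.3 ± 2.56 (SD, n = 3) in BDL and 96.7 ± 13.8 (SD, n = 3) in MZ. The log2 fold change was -4.04 for FO over MZ (standard error 0.159, limma adjusted p = 1.3e-06), -2.39 for BDL over MZ (standard error 0.159, limma adjusted p = 2.4e-05) and 1.65 for BDL over FO (standard error 0.159, limma adjusted p = 0.00113). It was thus 16.5-fold lower in FO than in MZ, and 3.13-fold higher in BDL than in FO. On the 3 dates, the BDL library was above the FO library by log2 differences of 1.60, 1.64 and 1.70. Of the markers of other cells or stages, Rgs13 (14.4-fold), Sdc1 (5.35-fold), Emr1 (3.98-fold) and Hbb-b1 (3.83-fold) were also called higher in BDL than in FO, and the part of such cells in the Fcrl5 difference was not tested.

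On the log2 scale, BDL stood 40.8% of the way from FO to MZ for Fcrl5. Over the 1035 rows called between FO and MZ, the median of this share was 16.5% and the quartiles -3.16% and 39.6%. For Fcgrt it was 16.5% and for Faim3 -58.3%, a value beyond FO on the side away from MZ. For Fcer2a it was 5.29%, but FO and BDL were both gated as CD23+ and MZ as CD23-, so that value checks the gate only. Of the 7 MZ markers, 3 were called higher in BDL than in FO as well (Cd9, Cd36 and Myof), and 0 lower, against 1.64% and 0.267% of all rows. The other markers were not called and went both ways. The log2 fold changes were 0.85 for S1pr3, 0.30 for Cd1d1, -0.04 for Dtx1 and -0.40 for Cr2, which was also a gate. This list was chosen with earlier results of these data known. Within a library, the ratio of Fcrl5 to Fcrl1, its neighbor on the chromosome, was 0.0445 ± 0.0062 (SD, n = 3) in FO, 0.144 ± 0.0165 (SD, n = 3) in BDL and 0.739 ± 0.103 (SD, n = 3) in MZ, with no overlap between subsets. The 2 genes whose log2 values followed Fcrl5 most closely over the 9 libraries were Chn2 (Pearson r = 0.995) and Plxnd1 (r = 0.994). Both were called in all 3 comparisons, with log2 fold changes for BDL over FO of 1.19 for Chn2 and 2.43 for Plxnd1. Chn2 reached the 0.5 FPKM minimum only through MZ (means 0.0691 in FO, 0.29 in BDL and 1.27 in MZ). Its FO values stand for an estimated 10.6 to 13.5 fragments per library. The 9 points of such a correlation share 3 subsets and 3 dates, and it is given as a description.

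**Figure D2:**
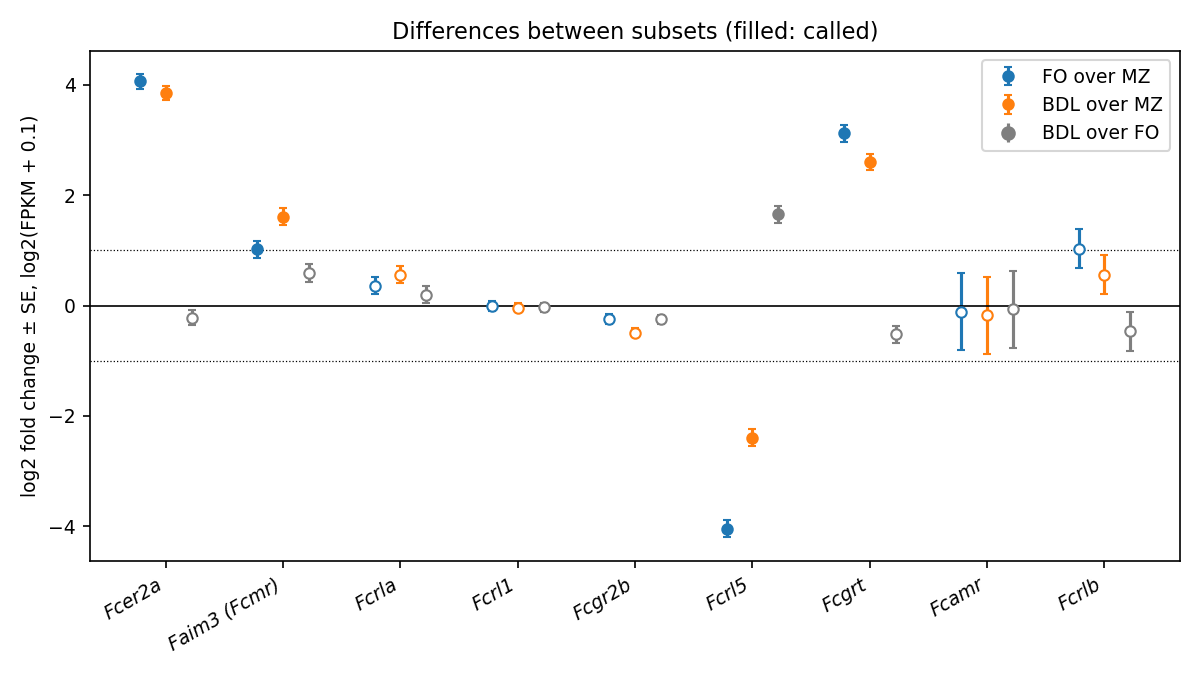
Log2 fold change (y axis, on log2(FPKM + 0.1)) with its standard error for each of the 9 genes in 3 comparisons, with filled points for calls and dotted lines at 2-fold. Fcer2a and Fcgrt reach above 2 and Fcrl5 below -2 in both comparisons with MZ, and the only filled point for BDL over FO is Fcrl5 at 1.65.

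Fcrl1 encodes an activating Fc receptor-like protein on the surface of B cells. It lies beside Fcrl5, from 87180309 to 87196055 on chromosome 3, plus strand, 43.8 kb away. Its FPKM was 134, 123 and 132 in FO, 133, 130 and 119 in BDL, and 138, 127 and 128 in MZ. All 3 subsets overlapped, and the mean levels were 130 ± 5.68 in FO, 127 ± 7.12 in BDL and 131 ± 6.16 in MZ (SD, n = 3 each). The 95% interval of the log2 difference was -0.20 to 0.18 for FO over MZ, -0.23 to 0.15 for BDL over MZ and -0.22 to 0.16 for BDL over FO. The next genes on either side of the pair, Cd5l and Etv3, were not called in any comparison. Etv3 passed the adjusted p in both comparisons with MZ, with log2 fold changes of -0.67 for FO over MZ (limma adjusted p = 8.1e-04) and -0.75 for BDL over MZ (limma adjusted p = 4.9e-04), the direction of Fcrl5.

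Fcgr2b encodes the inhibitory receptor for IgG immune complexes, the main Fc gamma receptor of B cells. It lies on chromosome 1 from 172890689 to 172906678 on the minus strand. Its FPKM was 78.1, 83.8 and 80.7 in FO, 72.1, 68.0 and 63.9 in BDL, and 93.9, 89.3 and 103 in MZ. The subsets were ordered BDL, FO and MZ with no overlap, but the steps between them were small. Means were 80.9 ± 2.85 (SD, n = 3) in FO, 68.0 ± 4.09 (SD, n = 3) in BDL and 95.5 ± 7.15 (SD, n = 3) in MZ. The log2 fold change was -0.49 for BDL over MZ (95% interval -0.69 to -0.29, limma adjusted p = 0.00415), a 1.4-fold difference that passed the adjusted p and not the 2-fold minimum. It was -0.24 for FO over MZ (limma adjusted p = 0.0814) and -0.25 for BDL over FO (limma adjusted p = 0.12), and neither passed. With upper quartile scaling, both of these passed the adjusted p (log2 fold changes of -0.29 and -0.31, limma adjusted p = 0.0205 and 0.0389). Each passed in 2 of 21 alternatives and did not in 19, where the limma adjusted p reached 0.226 and 0.276.

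Fcgr2b shares sequence with its neighbor Fcgr3, which encodes an activating IgG receptor of myeloid and NK cells: of the 1633 distinct runs of 50 bases in the Fcgr3 transcripts, 166 (10.2%) also occur in Fcgr2b. How the authors' program divided such reads is not known here, and since Fcgr2b had about 20 times the FPKM of Fcgr3, Fcgr2b reads counted as Fcgr3 could make up much of the Fcgr3 value. The Fcgr3 values, their ratio and their tests below cannot be told apart from such reads. Fcgr3 was measured at 4.06, 3.77 and 3.92 FPKM in FO, 3.48, 3.39 and 3.39 in BDL, and 4.95, 4.57 and 4.70 in MZ. It had the order of Fcgr2b, and the ratio of Fcgr2b to Fcgr3 was alike in the subsets, at 20.7 ± 1.48, 19.9 ± 0.962 and 20.2 ± 1.59 in FO, BDL and MZ (SD, n = 3 each). Fcgr3 passed the adjusted p against MZ (log2 fold change -0.27 for FO over MZ, limma adjusted p = 0.0225, and -0.46 for BDL over MZ, limma adjusted p = 0.00188) without reaching 2-fold.

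Fcrla and Fcrlb lie next to Fcgr2b on chromosome 1, from 172847707 to 172857714 and from 172837404 to 172843072, both on the minus strand. They encode Fc receptor-like proteins that stay inside B cells. Fcrla measured 195, 225 and 203 FPKM in FO, 213, 223 and 285 in BDL, and 144, 149 and 197 in MZ. BDL lay above MZ in every library, while FO overlapped with both, its lowest value being 195 FPKM and the highest MZ value 197. The log2 fold change was 0.56 for BDL over MZ (95% interval 0.20 to 0.92, limma adjusted p = 0.0308), under 2-fold. The adjusted p was at or above 0.05 in 6 of 21 alternatives, among them leaving out BDL replicate 3 (0.43, limma adjusted p = 0.0701), MZ replicate 1 (0.48, adjusted p = 0.11), MZ replicate 2 (0.50, adjusted p = 0.102), BDL replicate 2 (0.61, adjusted p = 0.0521) or FO replicate 3 (0.56, adjusted p = 0.0537). For FO over MZ, the log2 fold change was 0.36 (limma adjusted p = 0.139), and without MZ replicate 3 it was 0.50 (limma adjusted p = 0.0413). With both BDL replicate 3 and MZ replicate 3 left out, a setting chosen after the data were seen, it was also 0.50 (limma adjusted p = 0.00352). These were the 2 of 21 alternatives under 0.05 for FO over MZ, and 19 were at or above it.

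Fcrlb was near the lower end of detection: 0.646, 0.733 and 0.576 FPKM in FO, 0.576, 0.669 and 0.205 in BDL, and 0.302, 0.341 and 0.178 in MZ. FO lay above MZ in every library, and the low BDL value was that of replicate 3. In the fit with no minimum, the log2 fold change for FO over MZ was 1.03 (standard error 0.356, limma adjusted p = 0.0835). Without BDL replicate 3 its mean reached the minimum, and in that different fit, over fewer rows, the value was 1.03 (limma adjusted p = 0.0142). From its transcript length, these levels stand for an estimated 12.4 to 54.4 fragments per library. Fcrla, 4.63 kb away, was 320 ± 27.4 times as high as Fcrlb in FO (SD, n = 3).

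Faim3, now named Fcmr, encodes the Fc receptor for IgM, which binds IgM on the surface of B cells. It lies on chromosome 1 from 132762246 to 132777367, plus strand, in a row with the genes of the other IgM-binding receptors, Fcamr and Pigr. Its FPKM was 525, 477 and 550 in FO, 722, 673 and 971 in BDL, and 247, 235 and 287 in MZ. The order was MZ, FO and BDL with no overlap, and BDL replicate 3 stood above the other BDL libraries. Means were 517 ± 37.2 (SD, n = 3) in FO, 789 ± 160 (SD, n = 3) in BDL and 256 ± 27.2 (SD, n = 3) in MZ, the highest mean of the 9 genes in each subset, although in FO the values of Faim3 and Fcer2a overlapped. The log2 fold change was 1.61 for BDL over MZ (standard error 0.158, limma adjusted p = 1.7e-04) and 1.02 for FO over MZ (standard error 0.158, limma adjusted p = 0.00188). The latter is a 2.02-fold difference, just past the 2-fold minimum, and it fell to 0.96 with upper quartile scaling and to 0.97, 0.99 and 0.96 without FO replicate 3, MZ replicate 1 and MZ replicate 2, so that the call was lost on size and not on the adjusted p (at or under 0.0117 in every alternative).

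Between BDL and FO, Faim3 had a log2 fold change of 0.59 (95% interval 0.23 to 0.96, limma adjusted p = 0.0597), which did not pass. BDL was above FO on each date, by 0.46, 0.50 and 0.82. With the sort date as a block the limma adjusted p was 0.0126. With both BDL replicate 3 and MZ replicate 3 left out, a setting chosen after the data were seen, the log2 fold change was 0.43 (limma adjusted p = 0.0218). Both were under 2-fold. The limma adjusted p was under 0.05 in 3 of 21 alternatives and at or above it in 18, up to 0.169. The neighbor 1.28 kb away, Il24, a cytokine gene on the opposite strand, was called higher in FO and in BDL than in MZ, with log2 fold changes of 1.79 and 1.34 (limma adjusted p = 2.5e-04 and 0.00142). Pigr, the receptor that carries polymeric IgA and IgM across epithelia, lies 13.4 kb away on the other side and was not called (1.52 to 1.78 FPKM in FO, 0.933 to 1.55 in BDL and 1.52 to 2.0 in MZ).

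Fcamr, which encodes a receptor for IgA and IgM, lies on chromosome 1 from 132697479 to 132711317, plus strand. Its FPKM was 8.14, 6.92 and 6.84 in FO, 12.2, 12.9 and 2.08 in BDL, and 9.76, 12.5 and 3.92 in MZ. The third BDL and MZ libraries lay far below the other libraries of their subset, whereas the third FO library did not. These levels stand for an estimated 285 fragments in BDL replicate 3 and 398 in MZ replicate 3. With all libraries, the log2 difference was -0.07 for BDL over FO (95% interval -1.66 to 1.52), -0.18 for BDL over MZ (95% interval -1.76 to 1.41) and -0.11 for FO over MZ (95% interval -1.70 to 1.48), too wide to tell the subsets apart. With BDL replicate 3 and MZ replicate 3 both left out, a setting chosen after the data were seen, it was 0.78 for BDL over FO (limma adjusted p = 0.0156). In that setting it was 0.18 for BDL over MZ (not past the adjusted p) and -0.60 for FO over MZ (limma adjusted p = 0.0128). Each was under 2-fold. Of 21 alternatives, leaving out both of these libraries was the only 1 that passed the adjusted p for BDL over FO or for FO over MZ. What sets these libraries apart was not tested.

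**Figure D3:**
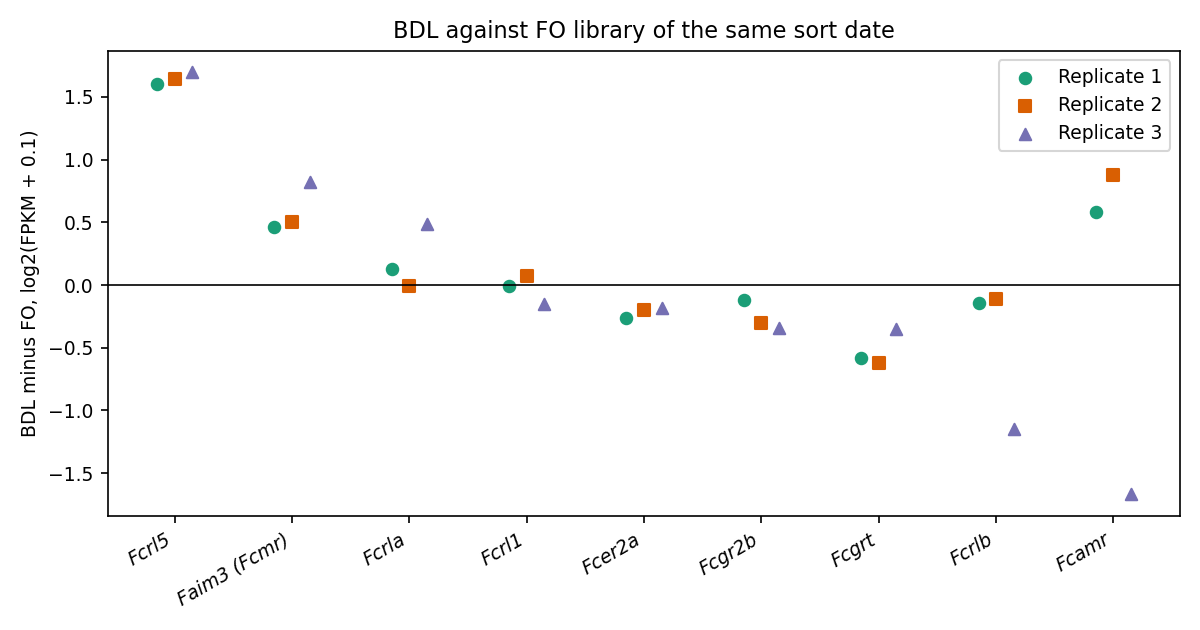
Log2 difference (y axis) between the BDL and the FO library of the same sort date for each of the 9 genes, 1 symbol per replicate number. Fcrl5 lies between 1.60 and 1.70 on all dates, Faim3 is above 0 and Fcgrt, Fcgr2b and Fcer2a below 0 on all dates, and Fcamr is above 0 in replicates 1 and 2 and at -1.67 in replicate 3.

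Fcgrt encodes FcRn, the neonatal Fc receptor, a protein built like an MHC class I heavy chain that pairs with beta-2 microglobulin and saves IgG from breakdown inside the cell. It lies on chromosome 7 from 52348363 to 52359192, minus strand. Its FPKM was 16.9, 17.8 and 20.5 in FO, 11.2, 11.6 and 16.1 in BDL, and 1.87, 2.27 and 1.95 in MZ. All 3 subsets were apart, with MZ lowest by a wide margin. Means were 18.4 ± 1.90 (SD, n = 3) in FO, 13.0 ± 2.73 (SD, n = 3) in BDL and 2.03 ± 0.21 (SD, n = 3) in MZ. The log2 fold change was 3.12 for FO over MZ, an 8.7-fold difference (standard error 0.153, limma adjusted p = 4.0e-06), and 2.60 for BDL over MZ, a 6.08-fold difference (standard error 0.153, limma adjusted p = 1.2e-05).

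Between BDL and FO, Fcgrt had a log2 difference of -0.52 (95% interval -0.87 to -0.17, limma adjusted p = 0.0811), and the difference was -0.58, -0.62 and -0.35 on the 3 dates. With the sort date as a block the limma adjusted p was 0.0359. Without BDL replicate 3 the difference was -0.68 (limma adjusted p = 0.017), and both were under 2-fold. The limma adjusted p was under 0.05 in 4 of 21 alternatives and at or above it in 17, up to 0.24. B2m, the partner of Fcgrt, was not called in any comparison. It measured 1129 to 1156 FPKM in FO, 1177 to 1562 in BDL and 1373 to 1899 in MZ. The nearest gene, Rcn3, 0.772 kb away, was not called (for FO over MZ -0.12 on the log2 scale, limma adjusted p = 0.687). Enpp1 and Tnik followed Fcgrt most closely over the 9 libraries (Pearson r = 0.997 for each), and both were called higher in FO and in BDL than in MZ.

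For the remaining genes, the closest patterns over the 9 libraries were those of Bach2os and Gmfg for Fcer2a (Pearson r = 0.999 and 0.998), Pknox1 and Mapk3 for Faim3 (0.994 and 0.993), Smu1 and Osbpl9 for Fcrla (0.994 and 0.991), Slc41a2 and Rnf145 for Fcgr2b (0.976 and 0.967), Zfp346 and Rgp1 for Fcrl1 (0.99 and 0.936), and Gm14378 and Npepl1 for Fcamr (0.992 and 0.989). Bach2os, a transcript of the Bach2 locus, was called higher in FO than in MZ with a log2 fold change of 2.57 (limma adjusted p = 7.3e-07), and Gmfg with one of 2.12 (limma adjusted p = 7.9e-07). The nearest genes beside Fcer2a were Trappc5, 0.482 kb away, and Clec4g, 12.9 kb away. Trappc5 was not called (for FO over MZ 0.48 on the log2 scale, limma adjusted p = 0.141), and Clec4g had subset means between 0.0215 and 0.234 FPKM, under the minimum. In the fit with no minimum Clec4g was called higher in BDL than in MZ (1.44, limma adjusted p = 0.00348), on an estimated 1.32 to 2.65 fragments per MZ library.

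Per length of transcript, the levels of the 9 genes can be set side by side within a library. Their sum was 1463 ± 74.6 FPKM in FO, 1693 ± 226 in BDL and 783.2 ± 63.7 in MZ (SD, n = 3 each), with FO and BDL overlapping and MZ below both. The sum includes Fcer2a, whose product CD23 was a gate of the sort (means 496 FPKM in FO, 427 in BDL and 29.6 in MZ). Its part in the lower MZ sum, and its low share in MZ, check the gate and are not a finding. In FO, Faim3 (35.3% ± 0.83) and Fcer2a (33.8% ± 1.39) made up most of the sum, followed by Fcrla (14.2% ± 1.71), Fcrl1 (8.88% ± 0.262) and Fcgr2b (5.54% ± 0.434; SD, n = 3 each). In BDL, the share of Faim3 was larger (46.3% ± 3.03) and that of Fcer2a smaller (25.3% ± 0.838), with no overlap with FO in either. In MZ, Faim3 was again first (32.7% ± 0.789), then Fcrla (20.8% ± 2.1), Fcrl1 (16.8% ± 1.64), Fcrl5 (12.3% ± 1.07) and Fcgr2b (12.2% ± 0.0973), and Fcer2a had 3.83% ± 0.837. Fcrl5 had a share of 0.396% ± 0.0664 in FO and 1.09% ± 0.216 in BDL (SD, n = 3 each), and in MZ its share and that of Fcgr2b did not differ beyond their spread. Shares sum to 100%, so that the share of a level gene such as Fcrl1 also moves when Fcer2a does.

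**Figure D4:**
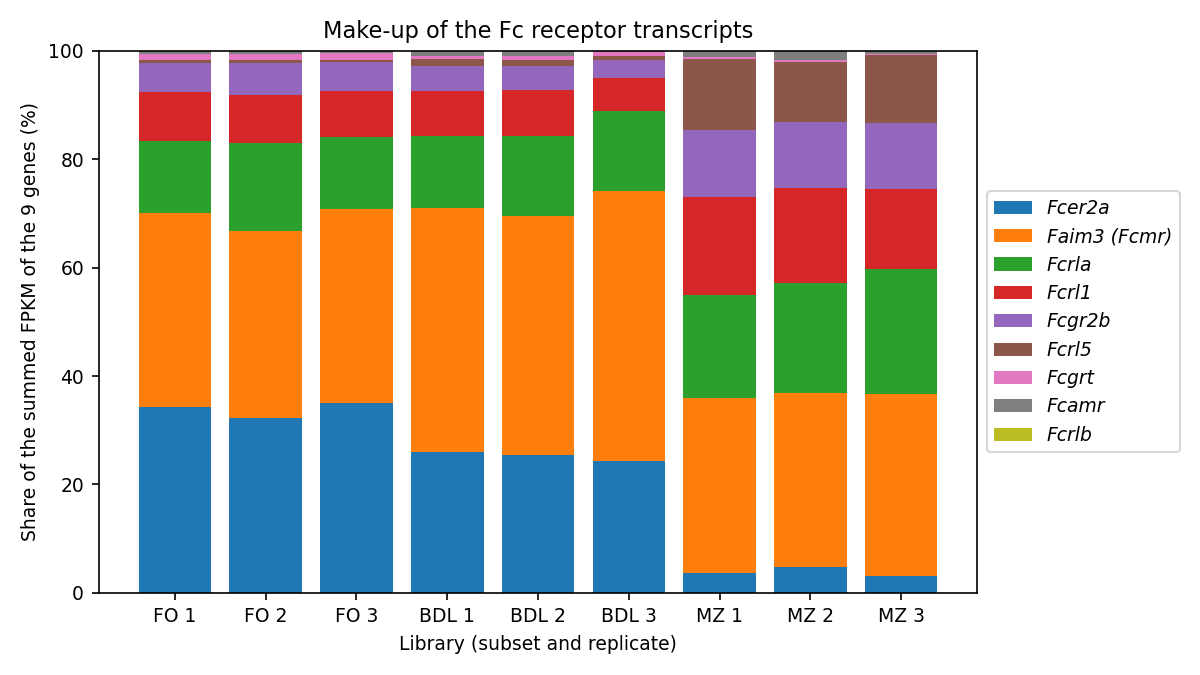
Share of the summed FPKM of the 9 genes (y axis, percent) taken by each gene in each of the 9 libraries (x axis). Fcer2a, whose product was a gate of the sort against MZ, shrinks from 33.8% on average in FO to 25.3% in BDL and 3.83% in MZ. Faim3 is widest in BDL, and the band of Fcrl5 is wide in MZ only, at 12.3%.

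Of 11 other Fc receptor genes and subunits, all had a row, 4 were tested (Fcgr3, Fcer1g, Pigr and Trim21) and none was called in any comparison, with median log2 fold changes of -0.18 for FO over MZ, -0.47 for BDL over MZ and -0.12 for BDL over FO. Of all rows tested, 3.39% were called higher and 5.54% lower for FO over MZ, and 3.47% and 4.34% for BDL over MZ. For BDL over FO these shares were 1.64% and 0.267%. Fcer1g, the signaling chain of activating Fc receptors, was low, at 0.629, 1.56 and 0.492 FPKM in FO, 1.07, 1.13 and 0.544 in BDL, and 1.21, 1.75 and 0.925 in MZ. Its highest value was that of replicate 2 in each subset, as it was for the myeloid gene Lyz2, at 2.87 in FO, 2.43 in BDL and 3.25 in MZ, and for the NK cell gene Gzma, at 3.55, 2.59 and 2.80. Other myeloid markers such as Emr1 and Cybb did not share this pattern, and the part of other cells in the Fcer1g values was not tested. Fcgr4, an activating IgG receptor of myeloid cells that lies between Fcgr2b and Fcgr3, was under the minimum and was measured at 0.106, 0.142 and 0.0763 FPKM in FO, 0.193, 0.158 and 0.211 in BDL, and 0.705, 0.957 and 0.970 in MZ. In the fit with no minimum it passed both thresholds, with log2 fold changes of -2.23 for FO over MZ (limma adjusted p = 8.6e-05) and -1.76 for BDL over MZ (limma adjusted p = 3.1e-04), on an estimated 5.7 to 19.4 fragments per library in FO and BDL and 48.9 to 77.6 in MZ. The summed myeloid markers were higher in MZ as well through Cybb, Cd68 and Itgam. Csf1r, under the minimum, also lay higher in MZ than in FO with no overlap (means 0.509 and 0.329 FPKM). Emr1, Lyz2, Csf3r and Cd14 overlapped between FO and MZ. The part of myeloid cells in the Fcgr4 difference was not tested. Fcer1a, the binding chain of the high-affinity IgE receptor, was listed at 0 in every library, and Fcgr1 reached at most 0.037 FPKM.

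The genes of proteins that read the receptor tails were counted next. Among 11 phosphatases and adaptors of inhibitory motifs, all tested, 1 was called in the comparisons with MZ and 0 between BDL and FO, against 3.39% higher and 5.54% lower of all rows for FO over MZ. The shares of all rows were 3.47% and 4.34% for BDL over MZ, and 1.64% and 0.267% for BDL over FO. The gene called was Dok2, an adaptor that restrains Ras signaling, measured at 0.503, 0.675 and 0.401 FPKM in FO, 0.311, 0.507 and 0.370 in BDL, and 2.98, 3.09 and 3.40 in MZ. It was lower than in MZ by a log2 fold change of -2.40 in FO (standard error 0.213, limma adjusted p = 8.4e-05) and -2.73 in BDL (standard error 0.213, limma adjusted p = 5.1e-05), and FO and BDL overlapped. By adjusted p alone, 1 of the 11 was higher and 2 lower in FO than in MZ, 2 higher and 1 lower in BDL than in MZ, and 0 passed between BDL and FO, counts that lie near the shares of all rows (12.8% and 14.3%, and 16.5% and 11.6%). Ptpn6, which encodes SHP-1, was the gene higher in FO (0.45, limma adjusted p = 0.0364) and in BDL (0.61, limma adjusted p = 0.00981), and the list's median log2 fold change was 0.04, 0.04 and 0.10 in the 3 comparisons.

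Of 10 kinases and adaptors of activating motifs, all tested, 0 were called. The shares called higher and lower over all rows were 3.39% and 5.54% for FO over MZ, and 3.47% and 4.34% for BDL over MZ. For BDL over FO they were 1.64% and 0.267%. By adjusted p, 3 were higher and 3 lower in FO than in MZ, and 4 higher and 3 lower in BDL than in MZ, beside the 12.8% and 14.3%, and 16.5% and 11.6%, of all rows. Those lower than in MZ in both were the adaptor gene Blnk (-0.75 in FO and -0.97 in BDL, limma adjusted p = 5.9e-04 and 1.5e-04), the kinase gene Blk (-0.95 and -0.71, limma adjusted p = 3.8e-04 and 0.00215) and Vav2. Those higher in both were Btk, Plcg2 and Pik3ap1, with log2 fold changes of 0.36 to 0.53. Syk itself had log2 fold changes of 0.14 and 0.19 against MZ, and neither passed (limma adjusted p = 0.274 and 0.122).

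**Figure D5:**
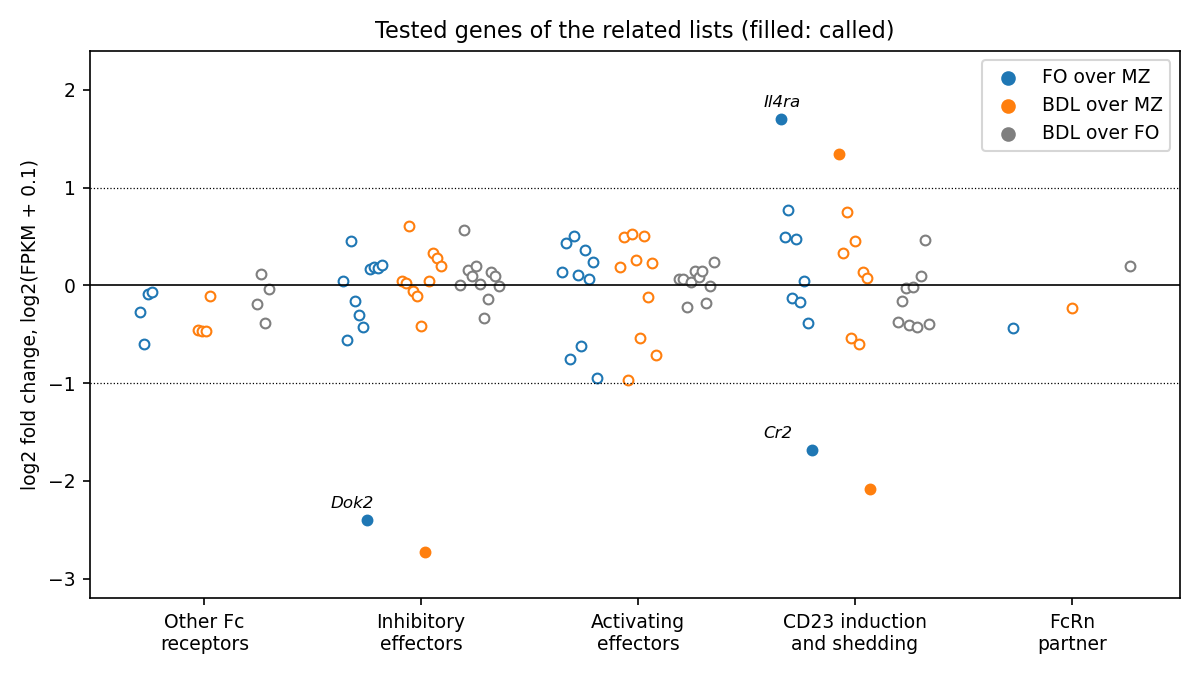
Log2 fold change (y axis) of each tested gene in 5 lists of related genes, for FO over MZ, BDL over MZ and BDL over FO, with filled points for calls and dotted lines at 2-fold. The filled points are Dok2 below -2, Il4ra above 1 and Cr2 below -1, all in comparisons with MZ, and 0 are filled for BDL over FO.

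Of 9 genes tied to the induction and shedding of CD23, all tested, Il4ra was called higher and Cr2 lower in FO and in BDL than in MZ, and 0 were called between BDL and FO. Over all rows tested, 3.39% were called higher and 5.54% lower for FO over MZ. The shares were 3.47% and 4.34% for BDL over MZ, and 1.64% and 0.267% for BDL over FO. Il4ra, which encodes the interleukin-4 receptor alpha chain, was measured at 72.8, 67.3 and 73.1 FPKM in FO, 53.4, 54.1 and 57.8 in BDL, and 19.1, 24.6 and 21.9 in MZ, with no overlap between subsets. Its log2 fold change was 1.70 for FO over MZ (standard error 0.102, limma adjusted p = 1.2e-05), 1.34 for BDL over MZ (standard error 0.102, limma adjusted p = 4.7e-05) and -0.37 for BDL over FO (limma adjusted p = 0.069, and 0.0455 with the sort date as a block). For BDL over FO, the limma adjusted p of Il4ra was under 0.05 in 4 of 21 alternatives and at or above it in 17, up to 0.21. Of the signal chain behind Il4ra, Il2rg, Jak1 and Stat6 passed the adjusted p in both comparisons with MZ (log2 fold changes 0.33 to 0.77). Jak3, the kinase that pairs with Il2rg, did not, at -0.13 for FO over MZ (limma adjusted p = 0.65) and -0.54 for BDL over MZ (limma adjusted p = 0.0635). Cd40, another inducer of CD23, was lower in BDL than in MZ (-0.60, limma adjusted p = 0.0056), under 2-fold. Adam10, the protease that sheds CD23, was not called, at log2 fold changes of -0.39 for FO over MZ, 0.08 for BDL over MZ and 0.46 for BDL over FO.

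Cr2 encodes CD21, a complement receptor that also binds CD23 and was a gate of the sort, int for FO and BDL and hi for MZ. It was measured at 137, 136 and 150 FPKM in FO, 109, 97.8 and 115 in BDL, and 456, 400 and 505 in MZ. As for Fcer2a, the difference from MZ (log2 fold changes of -1.68 for FO and -2.08 for BDL) is a check of the gate. Within a library, the ratio of Fcer2a to Cr2 was 3.51 ± 0.191 in FO, 3.98 ± 0.156 in BDL and 0.0667 ± 0.0177 in MZ (SD, n = 3 each), and FO and BDL did not overlap. Between BDL and FO the log2 difference of Cr2 was -0.40 (limma adjusted p = 0.0747, and 0.0157 with the sort date as a block). It was under 2-fold, with no overlap between the 2 subsets. The limma adjusted p was under 0.05 in 4 of 21 alternatives and at or above it in 17, up to 0.229.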

How the data were processed

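The authors aligned reads to the mouse genome mm9 with TopHat2 2.1.0 and, per the labels, used Cufflinks and Cuffdiff. They deposited 1 FPKM value per gene and library, and their table of Cuffdiff fold changes and p-values was not used. Per the labels the reads were single-end and unstranded, whereas the paper names a stranded kit. The FPKM values were used as deposited, with no further scaling, and repeated rows of a symbol were kept apart. The 11597 rows whose mean reached 0.5 FPKM entered 1 linear model of subset on log2(FPKM + 0.1) in limma 3.58.1 (R 4.3.3, eBayes with a trend), with Benjamini-Hochberg adjustment over all rows tested. Fold changes on this scale understate those of low genes. The file holds no counts: the value of 1 fragment per kilobase, read from the steps of low values, was 0.0137 to 0.0185 FPKM, with 66.3% to 75.7% of values within 0.1 of a whole fragment, so that fragment numbers are estimates and no count test was run.

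The sample titles of one replicate number share a string of digits, read here as the sort date, which pairs the libraries. The correlation of same-date deviations from subset means was 0.1 to 0.244 between BDL and MZ, -0.0623 to 0.147 between BDL and FO and 0.0077 to 0.0238 between FO and MZ. On simulated data for BDL over FO (11597 genes, of which 200 were given a log2 change of 1.5), 172 (86%) were recovered, with 3 false calls. The simulated noise was independent for each gene and library, with no shared date effect and no library set apart. It thus checks the code and does not give the error rate of these data. All 9 genes, the members of the lists of related genes and the lists' cell type markers were chosen with earlier results of these data known. Every one of the 9 genes is named, as are list genes that were called, the nearest gene on each side, and for each gene tested the 2 with the highest Pearson correlation over the 9 libraries. Some genes that these rules select are not reported here. Other list genes named in the text were chosen after their values were seen. Positions are from GENCODE M1 on NCBIM37 (mm9), whose models may differ from those the authors used. Alternatives were other pseudocounts (0.01 and 1), other minimums, upper quartile and quantile scaling, a block for the sort date, a fit to only the 6 libraries compared, eBayes without a trend or robust, summed rows of a symbol, each library left out in turn and, added after the data were seen, both BDL replicate 3 and MZ replicate 3 left out.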

Additional observations from a re-analysis of the deposited data

How the results depend on the processing

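The counts of these genes called in each direction were those of the report under every alternative run, with these exceptions. With no fold change minimum, 4 in place of 3 were higher and 2 in place of 1 lower in BDL than in MZ (Fcrla and Fcgr2b were added). For FO over MZ, 2 in place of 3 were higher with upper quartile scaling or without FO replicate 3, MZ replicate 1 or MZ replicate 2 (Faim3 was lost), and 4 without BDL replicate 3, where Fcrlb reached the minimum and was called. The direction turned only for Fcrl1 and Fcamr, which were not called. Over the fits that left out 1 library, the log2 fold change of Fcrl1 ran from -0.03 to 0.03 for FO over MZ, from -0.07 to 0.01 for BDL over MZ and from -0.06 to 0.02 for BDL over FO, and that of Fcamr from -0.60 to 0.23, from -0.67 to 0.67 and from -0.51 to 0.78. With both BDL replicate 3 and MZ replicate 3 left out, a choice made after the data were seen, they were 0.02 for Fcrl1 (BDL over FO), 0.18 for Fcamr (BDL over MZ) and 0.78 for Fcamr (BDL over FO). The sort date as a replicate block kept all counts of these genes called, and Fcrl5 kept its calls in all 21 alternatives (log2 fold change 1.51 to 1.78 for BDL over FO). Over all rows, calls without a fold change minimum were 1483 higher and 1658 lower for FO over MZ, 1909 and 1346 for BDL over MZ, and 701 and 195 for BDL over FO. With a pseudocount of 1, they were 406 lower for FO over MZ, 267 higher for BDL over MZ, and 78 higher and 16 lower for BDL over FO. Rows lower in BDL than in FO were 17 from 6 libraries, 49 with the block, and 15 to 17 without FO replicate 3 or FO replicate 1. Upper quartile scaling moved the median of all rows for BDL over MZ from 0.06 to -0.05. Depth limits Fcrlb, Fcgr4, Clec4g and, in FO and BDL, Chn2.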
